A study of Mus musculus with 4 samples.

Results

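Transthyretin (*Ttr*) and 9 other transcripts of the choroid plexus epithelium were followed through single-cell RNA-seq libraries of the mouse cortex, in the choroid plexus cells themselves, in all other cell types, and in cell barcodes too poor to be called cells. These 10 genes, of 27487 genes listed in any library, were selected on the values described here, because they were abundant in the cluster of choroid plexus cells and several of them were also counted in other cells. All comparisons below are therefore descriptions of these libraries. The cortex came from 24-week-old heterozygous Tg2576 mice, which express human APP with the Swedish mutation from a hamster prion promoter on a mixed B6;SJL background, and from their wild-type littermates. Animals were perfused with PBS, the tissue was enzymatically dissociated, and cells were captured in droplets with barcoded beads by Drop-seq. Each of the 4 groups (female wild-type, female Tg2576, male wild-type, male Tg2576) was 1 library made from 9 pooled mice, so there was no replicate in any group.

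The choroid plexus is a sheet of secretory epithelium that hangs in the brain ventricles, makes cerebrospinal fluid and forms the blood-cerebrospinal fluid barrier. It is not part of the cortex, but it lies close to it and can come along in a dissection. *Ttr* encodes a carrier of thyroid hormone and retinol-binding protein that the epithelium secretes into cerebrospinal fluid, where it can also bind amyloid beta, and the choroid plexus is its main site of synthesis in the brain. In droplet methods, RNA released from damaged cells is captured together with intact cells, so that a very abundant transcript of 1 cell type can be counted in many others.

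The 10 genes have different roles in the epithelium. *Ttr* (chr18:20664209-20674326 of GRCm38) and *Folr1* (chr7:101858331-101870788), a folate receptor, belong to transport between blood and cerebrospinal fluid. Secreted products are *Enpp2* (chr15:54838901-54952789), the autotaxin enzyme that makes lysophosphatidic acid, *Sostdc1* (chr12:36314169-36318452), an antagonist of BMP and Wnt ligands, and 1500015O10Rik (chr1:43730602-43742564, also named *Ecrg4*), which encodes the augurin hormone precursor. *Kl* (chr5:150952607-150993817) encodes klotho, a co-receptor of FGF23 that is also shed. *Kcnj13* (chr1:87384577-87394729) is an inwardly rectifying potassium channel, *Clic6* (chr16:92498147-92541241) belongs to the chloride intracellular channel family, and *Prlr* (chr15:10177238-10349190) is the prolactin receptor. *Calml4* (chr9:62857472-62875921) encodes a calmodulin-like protein.

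Each library held 3000 barcodes and between 1926857 and 2294296 unique molecular identifiers (UMIs, counts of single captured transcripts). Barcodes with 200 to 7000 genes and at most 20% mitochondrial UMIs were kept as cells, which left 1044 female wild-type, 1249 female Tg2576, 1010 male wild-type and 1532 male Tg2576 cells, with median depths of 1331.5, 1043, 1320.5 and 909 UMIs. A further 1353 to 1917 barcodes per library had under 200 genes. Mitochondrial genes took 15.4% and 17.2% of the UMIs of the female libraries and 10.9% and 7.87% of the male ones. The female libraries had 234 (wild-type) and 397 (Tg2576) barcodes over the 20% limit, against 73 and 46 in the male libraries. Between 11 and 17 barcode sequences were shared by any pair of libraries, of which 2 to 4 were kept cells in both. Levels below (CPM) are the UMIs of a gene in a set of barcodes, scaled to a total of 1000000 UMIs of that set, with exact Poisson 95% intervals. Ratios are log2 of the Tg2576 level over the wild-type level within a sex, with an exact conditional binomial 95% interval. All intervals cover counting error only. Drop-seq counts transcript ends, so UMIs of different genes were compared without scaling by length. With 4 libraries in 2 sexes, a permutation within sex has 4 arrangements and a smallest two-sided p of 0.5, and no test was run.

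The choroid plexus-like cells were a small group of 110 cells drawn from every library. They numbered 15 for female wild-type, 12 for female Tg2576, 42 for male wild-type and 41 for male Tg2576, which was 1.44%, 0.961%, 4.16% and 2.68% of kept cells. The 10 genes neither formed nor named the clusters. Of 24 other choroid plexus transcripts, 18 were at least 2-fold higher in the first of its sub-clusters (64 cells, median 673.5 UMIs) and 20 in the second (46 cells, median 2569.5 UMIs) than in the remaining cells. The first was led by *Ogn*, a gene of fibroblasts and meninges, ahead of *Kcne2* and *Ttr*. *Ttr* reached 243947 CPM in the first and 208734 CPM in the second. A neighbouring sub-cluster of 24 cells expressed all 11 listed markers of ependymal cells, the ciliated lining of the ventricles, and was kept apart as ependymal-like, with 0, 11, 6 and 7 cells in the 4 libraries.

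*Ttr* was the most abundant of the 10 genes in choroid plexus-like cells of every library. Its level was 153404 CPM in female wild-type (4434 UMIs), 185265 in female Tg2576 (2927 UMIs), 216129 in male wild-type (20698 UMIs) and 259873 in male Tg2576 (17425 UMIs). In a median choroid plexus-like cell, *Ttr* was 19.3%, 22.7%, 25.1% and 30.4% of UMIs in the same order, and the highest cell, in male Tg2576, reached 54.4%. Of the 110 cells, 109 had at least 1 *Ttr* UMI.

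*Enpp2* was next in abundance in every library, at 24391, 20887, 24737 and 20850 CPM in female wild-type, female Tg2576, male wild-type and male Tg2576. The augurin gene 1500015O10Rik followed at 2318, 2595, 3028 and 2565 CPM. The prolactin receptor *Prlr* stood out by its spread, with 2560 CPM in female wild-type and 696, 1076 and 671 CPM in the other libraries. The remaining 6 genes lay between 311 CPM (*Clic6* in female wild-type) and 1316 CPM (*Sostdc1* in male wild-type).

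**Figure D1:**
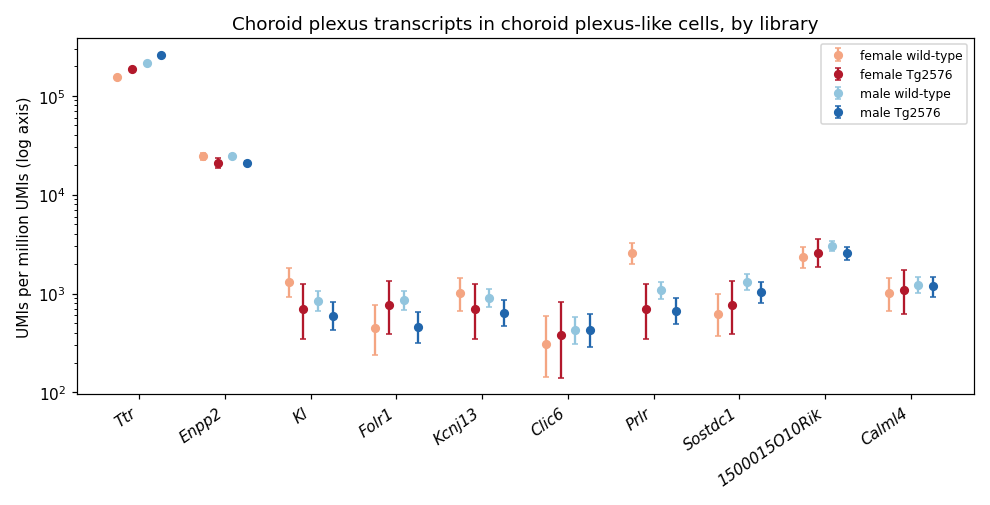
Levels of the 10 genes in choroid plexus-like cells of each library, in CPM on a log axis, with exact Poisson 95% intervals. *Ttr* lies between 153404 and 259873, *Enpp2* between 20850 and 24737, and the other genes between 311 and 3028.

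Within choroid plexus-like cells, *Ttr* was higher in Tg2576 than in wild-type by the same log2 ratio in both sexes, 0.27 in females (0.20 to 0.34) and 0.27 in males (0.24 to 0.30). *Enpp2* was lower, by a log2 ratio of -0.22 (-0.42 to -0.03) in females and -0.25 (-0.34 to -0.15) in males. *Prlr* was also lower in both sexes, at -1.88 (-2.94 to -0.96), from 74 UMIs in wild-type and 11 in Tg2576 females, and at -0.68 (-1.22 to -0.16), from 103 and 45 UMIs in males. *Folr1* was lower in males (-0.89, -1.53 to -0.28), while the interval in females ran from -0.51 to 2.01. The intervals of *Kl*, *Kcnj13*, *Clic6*, *Sostdc1*, 1500015O10Rik and *Calml4* spanned 0 in both sexes. How many of all genes had an interval that left out 0 in these cells was not counted. In females these ratios rest on 15 and 12 cells of pooled animals, and the choroid plexus-like cells of the 2 genotypes also differed in depth, with medians of 1572 and 1191 UMIs in females and 1541 and 761 in males. In female wild-type, 1 cell held 1686 of the 4434 *Ttr* UMIs, or 38.0%. The first sub-cluster, which had the higher *Ttr* level, took different shares of the cells. It held 9 of 15 in female wild-type, 9 of 12 in female Tg2576, 20 of 42 in male wild-type and 26 of 41 in male Tg2576. The parts of depth, single cells and sub-clusters in the ratios were not tested.

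Most *Ttr* UMIs of a library lay in a few barcodes, although these were barcodes of different kinds in the 2 sexes. Kept choroid plexus-like cells held 86.9% of all *Ttr* UMIs for male wild-type and 83.1% for male Tg2576, but 38.3% and 38.0% in female wild-type and Tg2576. In the female libraries, 41.9% and 42.8% of *Ttr* UMIs lay in barcodes over the mitochondrial limit, against 0.155% and 0.210% in the male ones. Within those high-mitochondrial barcodes, 9 barcodes for female wild-type and 7 for female Tg2576 had over 5% of their UMIs from the 10 genes and held 98.3% and 97.6% of the *Ttr* UMIs there. The male libraries had 0 such barcodes over the limit. The *Ttr* level in high-mitochondrial barcodes was 20540 CPM in female wild-type, 8348 in female Tg2576, 656 for male wild-type and 1616 for male Tg2576. Counted over the whole library, 50, 38, 75 and 69 barcodes with over 5% of UMIs from the 10 genes held 90.8%, 93.5%, 93.7% and 92.4% of all *Ttr* UMIs in female wild-type, female Tg2576, male wild-type and male Tg2576. The whole libraries had 5556, 3354, 12362 and 10433 *Ttr* CPM in that order, which gave log2 ratios of -0.73 for the female and -0.24 for the male pair. The level in other kept cells, with the rich cells left out, was 7.92%, 5.67%, 6.21% and 4.51% of the whole-library level.

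Outside choroid plexus-like cells, *Ttr* was counted in every library at well under 1% of its level inside them. The 4725 other kept cells had 491 CPM in female wild-type (769 UMIs), 252 in female Tg2576 (399 UMIs), 1005 in male wild-type (1563 UMIs) and 502 in male Tg2576 (849 UMIs). Against choroid plexus-like cells of the same library this was 0.320%, 0.136%, 0.465% and 0.193%. Both Tg2576 libraries were lower than the wild-type library of their sex, with log2 ratios of -0.96 (-1.14 to -0.79) in females and -1.002 (-1.12 to -0.88) in males, while both male libraries were higher than the female library of the same genotype. The male direction depended on the naming of 1 sub-cluster under a 5% mitochondrial limit. There, a sub-cluster of 24 cells that tied between the choroid plexus and ependymal lists gave a male ratio of -0.69 when counted as choroid plexus-like and 0.92 when counted among the other cells.

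Part of these UMIs came from single cells. In each library 1 cell outside the choroid plexus-like group had over 5% of its UMIs from the 10 genes. These were an astrocyte-like cell in female wild-type (81 *Ttr* of 1655 UMIs), a macrophage-like cell in female Tg2576 (98 of 1476), a mural-like cell in male wild-type (371 of 1297) and a microglia-like cell in male Tg2576 (54 of 885). Together they held 16.9% of the *Ttr* UMIs outside choroid plexus-like cells, and the doublet caller marked 0 of them. Without these cells the levels were 440, 190, 767 and 470 CPM, and the log2 ratios moved to -1.21 (-1.41 to -1.01) in females and -0.71 (-0.84 to -0.58) in males.

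*Ttr* lay at similar levels in 5 of the cell types in male wild-type, and again in female Tg2576. In male wild-type, microglia-like cells had 793 CPM, astrocyte-like cells 730, endothelial-like cells 727, oligodendrocyte-like cells 780 and neuroblast- or progenitor-like cells 733. In female Tg2576, the same types had 210, 156, 179, 204 and 151 CPM. These 2 libraries were the highest and the lowest for all 5 types, and within either library the Poisson intervals of the 5 types overlapped.

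Female wild-type and male Tg2576 lay between them. Microglia-like, astrocyte-like, endothelial-like and oligodendrocyte-like cells had 475, 692, 367 and 436 CPM in female wild-type, where astrocyte-like cells had 441 without the 1 cell named above. In male Tg2576 they had 606, 419, 509 and 308 CPM, with microglia-like cells at 514 (458 to 576) without the 1 cell. The interval of oligodendrocyte-like cells in male Tg2576, 232 to 402 CPM, did not reach that of microglia-like cells, whereas in male wild-type the same types were level.

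The other types were less precise or rested on single cells. OPC-like cells had 605, 666, 1021 and 548 CPM in female wild-type, female Tg2576, male wild-type and male Tg2576, the second from 5 UMIs in 8 cells, and neuron-like cells had 486, 197, 1632 and 663, the third from 7 UMIs in 4 cells. Macrophage-like cells had 513, 2860, 995 and 707 CPM in the same order, the second falling to 250 without the single cell above. Mural-like cells had 234, 222, 5620 and 383 CPM, the third falling to 606 without its single cell. Ependymal-like cells, which border the same ventricles, had 464 CPM in male wild-type, 147 in male Tg2576 and 0 of 7430 UMIs in female Tg2576.

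**Figure D2:**
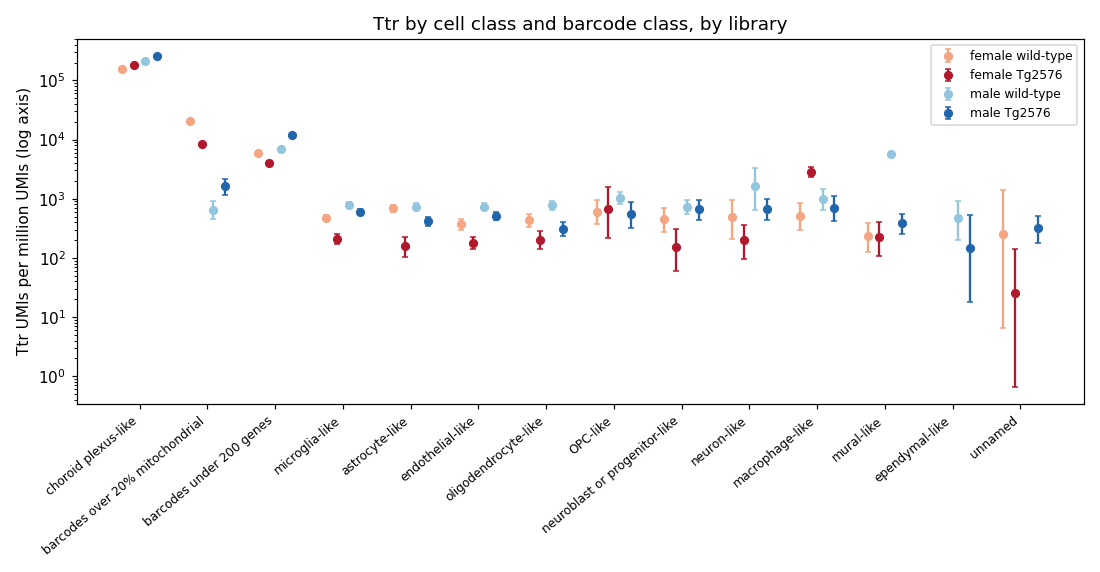
*Ttr* level by cell type and library, in CPM on a log axis with exact Poisson 95% intervals (a type with 0 UMIs or 0 cells has no point). Choroid plexus-like cells lie at 153404 and above, while microglia-like, astrocyte-like, endothelial-like and oligodendrocyte-like cells lie between 156 and 793, highest in male wild-type and lowest in female Tg2576. The points of 5620 (mural-like, male wild-type) and 2860 (macrophage-like, female Tg2576) each rest mainly on 1 cell.

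The share of cells with at least 1 *Ttr* UMI was highest in male wild-type and lowest in female Tg2576, as the level was. It was 44.1% of cells outside the choroid plexus-like group in female wild-type, 20.9% in female Tg2576, 61.9% for male wild-type and 37.8% for male Tg2576. After each cell was thinned to 500 UMIs, which left out 93, 186, 115 and 294 shallower cells, the shares were 22.2%, 9.23%, 33.4% and 20.6%. Female wild-type and male Tg2576 had intervals apart from each other before thinning (41.1% to 47.2% and 35.4% to 40.3%), at median depths of 1327 and 910 UMIs, and had overlapping intervals after it (19.6% to 25.0% and 18.3% to 23.0%). Neither microglia nor endothelial cells are known to make *Ttr*, and the source of the *Ttr* UMIs in them was not tested. Microglia-like cells (median 1195.5 UMIs over the 4 libraries) had 42.9% of cells with a UMI and 21.8% when thinned, and endothelial-like cells (median 947 UMIs) had 35.7% and 18.3%.

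The other 9 genes differed in where their UMIs outside the choroid plexus lay. Most were scarce in other cells, with 7 UMIs of *Kl*, 7 of *Folr1*, 12 of *Kcnj13*, 8 of *Clic6*, 19 of *Prlr* and 12 of *Sostdc1* over all 4725 cells. If each gene had stood to *Ttr* as it did in choroid plexus-like cells, the 3580 *Ttr* UMIs outside would have come with 13.4 UMIs of *Kl*, 10.9 of *Folr1*, 13.4 of *Kcnj13*, 6.69 of *Clic6*, 18.3 of *Prlr* and 17.7 of *Sostdc1*. Summed over libraries, the counted and the proportional numbers lay within a factor of 2 of each other for these 6 genes. They were further apart in single libraries, with 0 UMIs of *Kl* against 6.59 and 6 of *Prlr* against 12.8 in female wild-type, 1 of *Folr1* against 6.19 in male wild-type, and 8 of *Sostdc1* against 3.36 in male Tg2576. Ependymal-like cells, with 10 *Ttr* UMIs, held 5 of the 12 *Sostdc1* and 2 of the 7 *Folr1* UMIs. Without those cells *Sostdc1* and *Folr1* would not lie within the factor of 2.

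*Enpp2* departed from this proportion. Outside choroid plexus-like cells it had 2254 UMIs, where proportion to *Ttr* would give 378, and 1732 of them lay in the 353 oligodendrocyte-like cells. Its level there was 2572, 2456, 2396 and 3197 CPM in female wild-type, female Tg2576, male wild-type and male Tg2576, and 94.3% of the cells had a UMI. OPC-like cells, the precursors of oligodendrocytes, had 545, 267, 783 and 516 CPM, the second value from 2 UMIs. Autotaxin is a known product of maturing oligodendrocytes. For each 100 *Ttr* UMIs there were 628 *Enpp2* UMIs in oligodendrocyte-like and 80.0 in OPC-like cells, against 10.6 in choroid plexus-like cells. Microglia-like, mural-like and astrocyte-like cells were near the latter, with 7.83, 10.9 and 11.4. The mural-like value rests mainly on 1 rich cell of male wild-type, which held 371 of the 468 *Ttr* UMIs of that type. Without that cell, mural-like cells of male wild-type had 13 *Enpp2* and 44 *Ttr* UMIs, a higher proportion of *Enpp2*. Neuroblast- or progenitor-like cells had 16.8, endothelial-like cells 19.6, macrophage-like cells 23.8, neuron-like cells 37.3 and the unnamed cells 147, the last 3 from 19 to 40 *Enpp2* UMIs each. Ependymal-like cells had 4 *Enpp2* and 10 *Ttr* UMIs.

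*Calml4* and 1500015O10Rik were also counted in ependymal-like cells, though not evenly across libraries. Of 45 *Calml4* UMIs outside choroid plexus-like cells, 26 lay in the 24 ependymal-like cells, which had 10 *Ttr* UMIs. *Calml4* reached 1211 CPM there in female Tg2576 (9 UMIs), 812 in male wild-type (14 UMIs) and 220 in male Tg2576 (3 UMIs). For 1500015O10Rik, 21 of 58 UMIs lay in these cells, 11 in female Tg2576 (1480 CPM), 10 in male wild-type (580 CPM) and 0 of 13639 UMIs in male Tg2576. *Sostdc1* and *Folr1* had 5 and 2 UMIs in them.

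The make-up of the 10 genes' UMIs differed with these cell types. *Ttr* was 81.9%, 86.6%, 86.3% and 90.1% of the 10 genes' UMIs in choroid plexus-like cells of female wild-type, female Tg2576, male wild-type and male Tg2576. In all other kept cells it was 60.5%, 41.6%, 70.8% and 54.3%. Oligodendrocyte-like and OPC-like cells were then left out, a choice made after seeing the data. They held most of the *Enpp2* UMIs here, so the *Ttr* share was bound to rise. The shares became 85.6%, 73.0%, 87.2% and 85.1%, with intervals of 82.9% to 87.9%, 68.8% to 76.8%, 85.5% to 88.8% and 82.6% to 87.4%. These were above the choroid plexus share of the same library in female wild-type, below it in both Tg2576 libraries, and not apart from it beyond counting error in male wild-type. In barcodes under 200 genes the shares were 86.6%, 88.1%, 87.8% and 90.0%. There, the 654 UMIs of *Enpp2* compared with 714 in proportion to *Ttr*, the 81 of 1500015O10Rik with 84.8, the 21 of *Kl* with 25.3, the 45 of *Prlr* with 34.6 and the 12 of *Kcnj13* with 25.3.

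**Figure D3:**
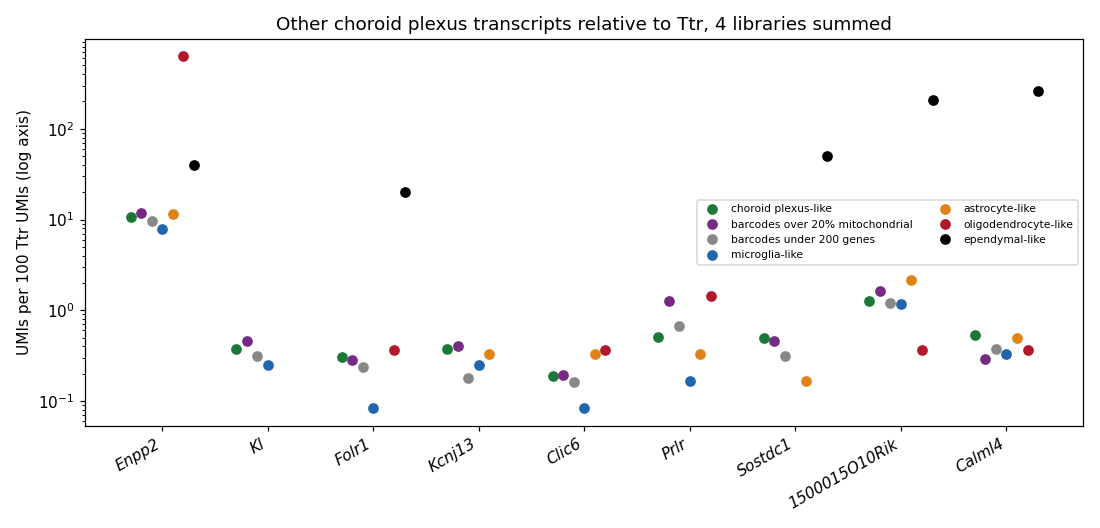
UMIs of each of the other 9 genes per 100 *Ttr* UMIs, over all 4 libraries together, in 7 sets of cells or barcodes shown by colour, on a log axis (a gene with 0 UMIs in a set has no point). *Enpp2* stands at 628 in oligodendrocyte-like cells against 10.6 in choroid plexus-like cells, and the ependymal-like points, over 10 *Ttr* UMIs, stand above the rest for *Calml4*, 1500015O10Rik, *Sostdc1* and *Folr1*.

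Barcodes with under 200 genes held a higher *Ttr* level than the cells did. It was 5984 CPM in female wild-type (1531 UMIs), 4035 in female Tg2576 (1068 UMIs), 6920 in male wild-type (1522 UMIs) and 11832 in male Tg2576 (2642 UMIs). Male Tg2576 was the highest library here, whereas male wild-type was the highest in cells. The level in other kept cells was 0.0821, 0.0624, 0.145 and 0.0424 of the level in these small barcodes.

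Their *Ttr* was concentrated as well. *Ttr* was present in 11.0%, 8.50%, 13.5% and 34.7% of the small barcodes in female wild-type, female Tg2576, male wild-type and male Tg2576, and the 1% of barcodes with most of it held 74.0%, 85.1%, 73.0% and 62.5% of its UMIs. Between 19 and 33 small barcodes per library had over 5% of UMIs from the 10 genes. Without them the level fell to 740, 422, 1165 and 3372 CPM, and the cells, also without their 4 rich cells, stood at 0.595 (0.505 to 0.704), 0.451 (0.361 to 0.566), 0.658 (0.574 to 0.758) and 0.139 (0.126 to 0.154) of it. The first 3 libraries were then alike to within a factor of 2, and male Tg2576 stood apart.

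The size of the barcode separated male Tg2576 from the others. With the rich barcodes left out, *Ttr* in male Tg2576 was 6239 CPM in barcodes of 1 to 49 genes, 4599 at 50 to 99 genes, 2088 at 100 up to 200 genes, 628 at 200 up to 500 genes and 415 at 1000 or more genes. In male wild-type the same classes had 1341, 1380, 785, 806 and 776 CPM. In female wild-type they had 1034, 694, 613, 482 and 414 CPM, and in female Tg2576 742, 521, 295, 201 and 170 CPM. Without the rich barcodes, the smallest barcodes had the highest level in 3 of the 4 libraries. In male wild-type the class of 50 to 99 genes was level with them. With the rich barcodes kept, the class of 100 up to 200 genes was the highest in every library. Its levels were 8849 and 4627 CPM for wild-type and Tg2576 females, and 12183 and 15501 CPM for the males. The class of 1 to 49 genes then had 2110.5, 2882, 3043 and 7337 CPM in that order. Below 200 genes, a fall with barcode size was therefore seen only without the rich barcodes.

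**Figure D4:**
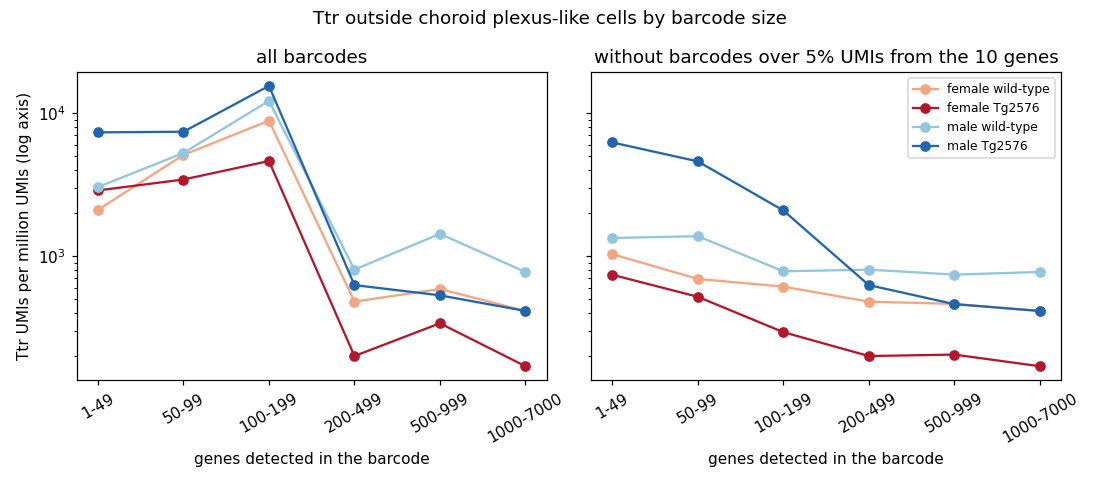
*Ttr* level outside choroid plexus-like cells by the number of genes in a barcode (classes on the horizontal axis), in CPM on a log axis, with 1 line per library. All barcodes are on the left, and those with over 5% of UMIs from the 10 genes are left out on the right, where male Tg2576 descends from 6239 in the smallest class to 415 in the largest, while male wild-type stays between 744 and 1380.

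In small barcodes the 2 sexes went opposite ways. The log2 ratio of *Ttr* was -0.57 (-0.68 to -0.45) in females and 0.77 (0.68 to 0.87) in males, and without the rich barcodes -0.81 (-1.16 to -0.46) and 1.53 (1.32 to 1.75). *Enpp2* followed with -0.75 (-1.12 to -0.39) in females, from 168 and 103 UMIs, and 0.33 (0.04 to 0.63) in males, from 168 and 215 UMIs. Small barcodes were rich in mitochondrial UMIs, at 41.3%, 42.6%, 36.7% and 27.7% in female wild-type, female Tg2576, male wild-type and male Tg2576. When those over 20% mitochondrial were left out, the female ratio turned to 0.89 (0.70 to 1.07) and the male ratio became -0.02 (-0.12 to 0.09), so neither direction in small barcodes held against that choice. The difference between the sexes was not tested.

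Cells outside the choroid plexus went the same way in most types. Of 10 types (9 named and the unnamed cells) with a *Ttr* ratio in females, 8 were lower in Tg2576, 5 of them with an interval below 0, and 1 was higher with an interval above 0. Of 10 named types in males, all were lower, 6 with an interval below 0. Microglia-like cells, with 1764 cells the largest type, had -1.18 in females and -0.39 in males, or -0.62 in males without the 1 rich cell. Oligodendrocyte-like cells had -1.10 (-1.74 to -0.47) and -1.34 (-1.83 to -0.86), and endothelial-like cells -1.04 (-1.49 to -0.58) and -0.51 (-0.81 to -0.22). The type that was higher in females was the macrophage-like one, at 2.48 with its rich cell and -1.04 (-2.40 to 0.22) without it. In males the mural-like ratio of -3.88 became -0.66 (-1.39 to 0.04) without its rich cell.

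**Figure D5:**
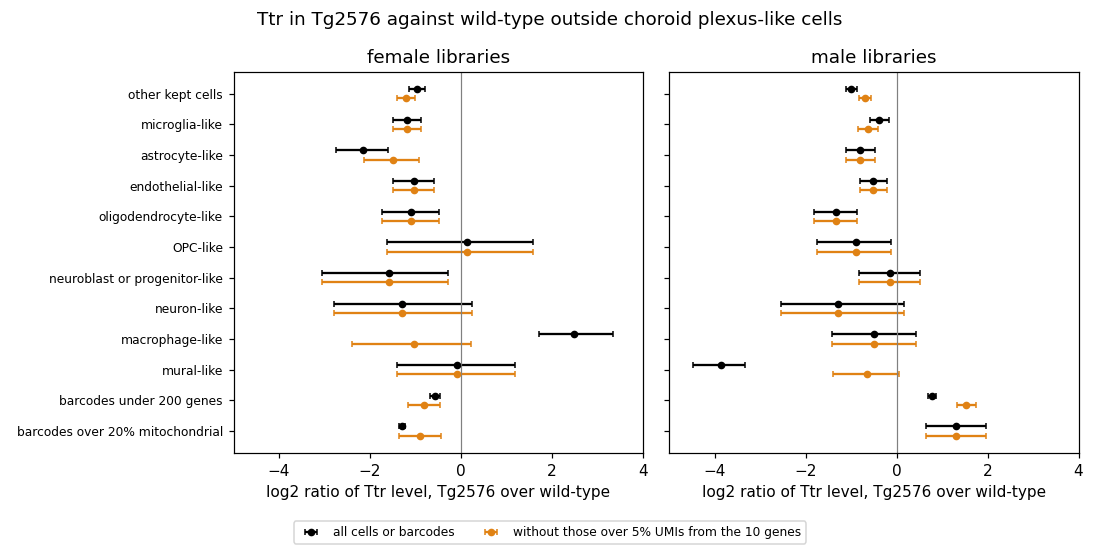
Log2 ratio of the *Ttr* level, Tg2576 over wild-type, in each set of barcodes for females and males, outside choroid plexus-like cells, with exact conditional binomial 95% intervals, for all cells or barcodes (black) and without those over 5% of UMIs from the 10 genes (orange). Other kept cells lie at -0.96 and -1.002, and barcodes under 200 genes at -0.57 and 0.77.

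The other genes were mostly too scarce outside the choroid plexus for a ratio. In other kept cells, 4.61% of 14330 genes with at least 10 UMIs in the female libraries were at least 2-fold lower in Tg2576 and 5.55% were at least 2-fold higher. Of the 4 of the 10 genes that reached 10 UMIs there, 0 were 2-fold lower and 1, *Calml4*, was 2-fold higher. *Ttr*, at -0.96, fell just short of 2-fold. In males, where 4.31% of 14907 genes were 2-fold lower and 4.88% higher, 3 of 6 were lower (*Ttr*, *Prlr* and *Calml4*) and 0 were higher. Without the rich cells *Ttr* had -1.21 in females and -0.71 in males, so its 2-fold call changed from males to females. For *Calml4*, ependymal-like cells held 14 of 23 UMIs in male wild-type, 3 of 7 in male Tg2576 and 9 of 12 in female Tg2576. The ratio of *Prlr* rests on 2 and 8 UMIs and has an interval from -5.39 to 0.20. The median ratio of the measured members was 0.34 in females and -0.99 in males, beside 0.03 and 0.05 over all genes. *Enpp2*, most of whose UMIs here lay in oligodendrocyte-like cells, had 0.12 (-0.06 to 0.30) in females and 0.10 (-0.06 to 0.27) in males.

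In small barcodes, 8.18% of 5633 genes were at least 2-fold lower and 9.89% at least 2-fold higher in Tg2576 females, against 2 of 5 measured members lower (*Kl* and *Prlr*) and 0 higher. In males, 5.62% of 5707 genes were 2-fold lower and 17.8% were 2-fold higher, with 0 of 8 measured members lower and 2 higher (*Prlr* and *Sostdc1*). These calls rest on 3 to 20 UMIs per library. The intervals were below 0 for *Prlr* in females (-3.39 to -0.42) and above 0 for *Sostdc1* in males (0.09 to 4.44), and spanned 0 for *Kl* in females and *Prlr* in males. The median over all genes was -0.05 in females and 0.24 in males, and the median over the members was -0.75 and 0.73. The male ratios in small barcodes are thus on a scale where the middle gene was itself higher in Tg2576.

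The other 24 choroid plexus transcripts, which had been listed to name the clusters, were far less abundant than *Ttr*. Of these, 22 had at least 3 UMIs in choroid plexus-like cells, 21 were at least 2-fold higher there than in other kept cells, and 14 were higher there in all 4 libraries. The 4 most abundant were *Trpm3*, a cation channel, at 790 CPM, *F5*, coagulation factor V, at 781, *Otx2*, the transcription factor of the epithelium, at 400, and *Lbp*, the lipopolysaccharide-binding protein, at 347. Outside choroid plexus-like cells these were at 27.1, 9.54, 1.72 and 3.60 CPM. *Cgnl1*, a tight junction gene, was the exception, at 86.7 CPM inside and 127 outside. In small barcodes 19 of the 24 had a UMI, and 267 UMIs were counted over the whole list, against 6763 of *Ttr*.

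Myelin transcripts gave a second view of a cell type's RNA outside its own cells. For *Ttr* the level in microglia-like cells was 0.235% of that in choroid plexus-like cells over the 4 libraries, and the level in small barcodes was 3.20% of it. *Mbp*, myelin basic protein, and *Mobp*, another myelin protein gene, have mRNAs that are carried into the myelin sheath. Against oligodendrocyte-like cells, they had 2.66% and 3.09% of their level in microglia-like cells and 51.5% and 61.4% in small barcodes. The shares in small barcodes varied widely by library, at 57.0%, 18.7%, 91.6% and 33.3% for *Mbp* and 85.6%, 22.6%, 106% and 32.3% for *Mobp* in female wild-type, female Tg2576, male wild-type and male Tg2576, with both Tg2576 libraries lower than the wild-type library of their sex.

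Over 42 sums of a cell type in a library outside choroid plexus-like cells, from 11 types, the genes whose levels ran most like *Ttr* among 8878 genes with at least 100 UMIs were *Abcf1* (Pearson's r of 0.77), *Rbm25* (0.75), *Purb* (0.74), *Gm12020* (0.73) and *Pdcd4* (0.73). Of the other 9 choroid plexus genes, *Enpp2* alone had enough UMIs to be ranked, with an r of 0.32. The 42 points share 4 libraries and differ in depth, and the coefficients are given as a description. In choroid plexus-like cells these 5 genes had 111 to 251 CPM, each below its own level in the other kept cells.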

How the data were processed

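The deposited tables hold raw counts, UMIs per gene and barcode, which the authors made from Drop-seq reads. The submitters' processing notes name mm10 and Seurat 3.1.4, and the aligner is not given in the sources used here. Limits of 200 to 7000 genes and 5% mitochondrial UMIs are stated for other mice in the paper that reused these data, and those applied to these libraries are not given in the sources used here. Here 200 to 7000 genes and 20% were used, since 5% left 47 choroid plexus-like cells in place of 110. UMIs of all libraries were normalized with sctransform 0.4.2 and clustered in Seurat 5.3.0 (2500 variable genes asked for, the 9 of the 10 genes among them removed, 19 principal components, resolution 0.5). A cluster took the "-like" name of the marker list with most members at least 2-fold higher and at least 3 UMIs. The cluster with most choroid plexus marker UMIs was divided once more, a step chosen after seeing the data. Scrublet (scanpy 1.11.5) marked 1.49% to 2.22% of cells as doublets, which were kept and left out only in an alternative. For each library, the UMIs of every cell type were added up, and levels, ratios and exact intervals were computed with scipy 1.17.1 in Python 3.11.15. Barcodes under 200 genes had no mitochondrial limit. TMM factors came from edgeR 4.0.16 in R 4.3.3, and no count model was fitted, because each group was 1 pooled library. Ratios past 2-fold were counted over genes that reached 10 UMIs over both libraries of a sex. The ratio step was tested on simulated data. Gene positions came from RefSeq on GRCm38 (mm10).

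The genes named are the 10 given genes, the 4 most abundant of the other choroid plexus list, the myelin genes *Mbp* and *Mobp*, and the 5 genes with the highest Pearson correlation of log2(CPM + 1) with *Ttr*. The genes and lists were chosen with earlier results of these data known. *Cgnl1* and *Ogn* were named after their values were seen. The alternatives were other limits on mitochondrial UMIs and genes, another resolution, the 10 genes kept for clustering, doublets or cells rich in the 10 genes left out, other totals and TMM scaling, smaller barcodes, other count minimums and thinning to 500 UMIs per cell. One further gene of the naming rule is not reported here.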

Additional observations from a re-analysis of the deposited data

Results flagged for a closer look

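The 10 genes were looked at in other kept cells, in barcodes under 200 genes and in barcodes over 20% mitochondrial. In 4 places Tg2576 and wild-type differed in opposite directions in the 2 sexes beyond counting error. The share of all genes that did so was not counted, so the 4 places are not a finding about these genes. With 1 pooled library per group, the difference between the sexes was not tested. *Ttr* in barcodes under 200 genes had log2 ratios of -0.57 for females and 0.77 for males, and *Enpp2* in the same barcodes had -0.75 and 0.33. *Ttr* in barcodes over 20% mitochondrial had -1.30 in females, where 9 and 7 barcodes held nearly all of it, and 1.30 in males, from 37 wild-type and 44 Tg2576 UMIs. *Calml4* in kept cells outside the choroid plexus-like group had 1.98 (0.09 to 4.45) in females, from 3 and 12 UMIs, and -1.84 (-3.30 to -0.57) in males, from 23 and 7 UMIs. Of these UMIs, 9 in female Tg2576, 14 for male wild-type and 3 for male Tg2576 lay in ependymal-like cells, of which there were 0 in female wild-type, 11 in female Tg2576, 6 for male wild-type and 7 for male Tg2576.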

How the results depend on the processing

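Each group was 1 library, so no replicate could be left out. No paired analysis was possible because each group held 1 pooled library, and the ratios came from no test. In females, the *Ttr* ratio outside choroid plexus-like cells was below 0 with its interval in 13 of 13 alternatives (-1.84 to -0.93), and in males in 12 of 13. The exception was the 5% mitochondrial limit with a tied 24-cell sub-cluster named ependymal-like, chosen after seeing the data, where males reversed to 0.92 and females had -1.84. Otherwise males had -0.69 with the 5% limit, -0.63 with 10%, -0.68 with at least 500 genes and -0.71 without rich cells (over 5% of UMIs from the 10 genes). Females had -1.37 with the 10 genes kept for clustering and -1.21 without rich cells.

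In barcodes under 200 genes, a 20% mitochondrial limit reversed the ratio to 0.89 in females and took it to -0.019 in males, with an interval spanning 0. Barcodes under 100 genes gave -0.26 in females. Males had 0.60 with totals without mitochondrial genes and *Malat1*, and 0.48 with TMM factors. Without rich small barcodes, added after seeing the data, the ratios were -0.81 and 1.53.

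The *Ttr* share of the 10 genes' UMIs in other kept cells became 67.3%, 72.0%, 68.8% and 50.1% (female wild-type, female Tg2576, male wild-type, male Tg2576) with the 5% limit, and 64.6% in male wild-type with 10%. With at least 500 genes it was 65.3% and 49.96% in the male libraries. With the 10 genes kept for clustering, or without rich cells, it was 35.7% in female Tg2576, and without rich cells 66.1% in male wild-type. Without oligodendrocyte-like and OPC-like cells, added after seeing the data, it was 85.6%, 73.0%, 87.2% and 85.1%. In small barcodes without the rich ones it was 80.8%, 73.8%, 83.9% and 86.0%.

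The *Ttr* level in other kept cells over that in small barcodes became 0.0535 (female Tg2576) and 0.113 (male wild-type) with the 5% limit, 0.0747, 0.0514 and 0.111 (all but male Tg2576) with 10%, and 0.110 in male wild-type with at least 500 genes. With the 10 genes kept for clustering it was 0.0471 in female Tg2576. Without rich cells it was 0.0736, 0.0471 and 0.111 in all but male Tg2576. With totals without mitochondrial genes and *Malat1* it was 0.0546, 0.0401, 0.1003 and 0.0322, and with TMM factors 0.0564, 0.0426, 0.0974 and 0.0345. Without rich small barcodes it was 0.664, 0.597, 0.863 and 0.149, and without rich cells as well 0.595, 0.451, 0.658 and 0.139.

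Counts of genes past 2-fold followed the minimum count. In other kept cells, female lower and higher and male lower and higher counts were 660, 795, 642 and 727 at 10 UMIs, 110, 129, 76 and 87 at 50 UMIs, and 3903, 4176, 4012 and 4057 at 1 UMI. In small barcodes they were 461, 557, 321 and 1014, then 34, 23, 27 and 45, and 3832, 4149, 3506 and 5175. Choroid plexus-like cells numbered 47 with the 5% limit and 62 with at least 500 genes. Resolution 1, doublet removal and the undivided cluster kept every value within its counting interval.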
